A study of Mus musculus with 3 samples.

Results

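Secretoglobins are small secreted proteins of epithelial surfaces and glands, and 4 genes of this family are described here in tdTomato-sorted cells of the mouse larynx. The 4 genes, Scgb1a1, Scgb3a1, Scgb3a2 and Scgb1c1, were taken by symbol from 33696 features, of which 31 others also carry a secretoglobin symbol. The question addressed was which epithelial cells of the larynx held the RNA of each secretoglobin, how far the members went together in single cells, and whether cells with and without Lrig1 RNA differed in them. Lrig1 is an ErbB receptor inhibitor that marks progenitor cells in several epithelia.

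Cells came from Lrig1CreERT2/+; ROSA LSL-tdTomato/+ mice, in which a tamoxifen-activated Cre under control of Lrig1 switches on a red fluorescent protein. All 3 libraries belonged to this single condition: Cre was activated by 2 tamoxifen injections on consecutive days, larynges were taken 1 day after recombination, and tdTomato-positive cells were sorted with gates set on wild-type and ROSA LSL-tdTomato/+ larynges. Each library was a pool of 10 larynges, 5 from males and 5 from females, so single animals could not be told apart, and a cell that had lost Lrig1 after recombination kept the label. The unit of replication was the library (n = 3), and no untreated or Cre-negative library was analysed here.

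The libraries held 18068, 10816 and 31646 barcodes with 211727921, 147898790 and 413632222 UMIs (counted RNA molecules), and 13222, 7201 and 24119 cells were kept at a median of 10664, 14199 and 10694 UMIs. The libraries shared between 22 and 100 cell barcodes pair by pair. A Lrig1 UMI was found in 40.8, 57.2 and 50.6% of the kept cells.

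Scgb1a1 encodes the club cell secretory protein, the classical product of airway club cells, with anti-inflammatory properties. Scgb3a1 and Scgb3a2 are related secreted proteins of the conducting airways, Scgb3a1 being made in mucous cells and glands and Scgb3a2 in secretory cells from early in lung development. Scgb1c1 is known from nasal and olfactory mucosa. In the trachea, basal cells give rise to secretory cells, and NKX2-1 and FOXA factors are known regulators of secretoglobin promoters.

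In the GRCm39 annotation all 4 genes are protein-coding genes of 2 or 3 exons. Scgb1a1 lies at chr19:9061000-9065326 on the minus strand and Scgb3a1 at chr11:49549630-49555945 on the plus strand, each with 3 exons. Scgb1c1 lies at chr7:140425460-140426682 on the plus strand with 3 exons, and overlaps Gm45785 and C330022C24Rik on the opposite strand.

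The sequences before the start of the genes are shown because the factors NKX2-1 and FOXA are followed below beside the levels. RefSeq promoter sequence of GRCm38.p6 was matched for 2 of the 4 members, as the 250 bases before the gene start, read in the direction of the gene. Capitals mark the core letters CTCAAG of NKX2-1 sites or CTTGAG on the other strand, and the core letters GCAAACA of FOXA sites or TGTTTGC on the other strand. The Scgb3a1 sequence is chr11:49663345-49663594 and the Scgb1c1 sequence chr7:140845315-140845564, both on the plus strand.
Scgb3a1: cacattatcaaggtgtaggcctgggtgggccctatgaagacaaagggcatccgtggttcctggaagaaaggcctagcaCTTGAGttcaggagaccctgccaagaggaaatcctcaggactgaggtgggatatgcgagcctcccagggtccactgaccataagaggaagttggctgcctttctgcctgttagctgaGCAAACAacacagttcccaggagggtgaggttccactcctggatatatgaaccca
Scgb1c1: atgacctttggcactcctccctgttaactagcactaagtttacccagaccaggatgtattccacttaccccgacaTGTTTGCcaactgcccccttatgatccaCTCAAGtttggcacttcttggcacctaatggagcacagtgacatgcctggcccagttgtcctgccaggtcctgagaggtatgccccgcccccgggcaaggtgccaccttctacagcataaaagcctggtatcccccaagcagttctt
In Scgb3a1 the NKX2-1 letters began 172 bases and the FOXA letters 55 bases before the start. In Scgb1c1 they began 147 and 175 bases before it. The same letters stood in 13.3% (NKX2-1) and 4.30% (FOXA) of 32851 promoter sequences of this length, and a match describes the letters only.

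Cells were placed in classes by gates on genes other than the secretoglobins. Club-like cells carried airway secretory genes such as Cyp2f2 and Gabrp but not the basal set, airway basal-like cells the basal set with Nkx2-1 and without Tmprss11a, squamous basal-like cells the basal set with Tmprss11a and without Nkx2-1, and basal-club intermediate cells passed both the basal and the club gate. A cell that passed the goblet gate was classed as goblet-like even when it also passed the club or basal gate. The gland gate, which asked for no basal set, came after both and took such cells from either class. The number of markers each gate asked for was set after the levels of these markers were seen. Gene levels are given as CPM, the UMIs of the gene scaled to a common total of UMIs over the cells of a class in 1 library, and means as mean ± SD over libraries (n = 3).

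Levels of genes that were themselves used in the gates, and so were set by them, describe the classes. Trp63, the basal cell transcription factor, was at 770 ± 36.6 CPM in airway basal-like, 508 ± 23.5 CPM in intermediate and 65.6 ± 21.0 CPM in club-like cells. Gland-like cells held Dcpp3, a product of serous gland cells, at 34557 ± 6551 CPM, but Lpo, another serous marker, at only 21.5 ± 18.7 CPM. Dmbt1, also a gene of the gland gate, was at 7433 ± 3195 CPM in gland-like, 2279 ± 578 CPM in goblet-like and 597 ± 138 CPM in club-like cells. Goblet-like cells held the mucin Muc5b at 2747 ± 572 CPM, below the 3904 ± 1569 CPM of gland-like cells, and Muc5ac, the other airway mucin, at 175 ± 183 CPM. Muscle satellite-like cells held Pax7 at 601 ± 177 CPM and endothelial-like cells Pecam1 at 1777 ± 299 CPM.

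Scgb1a1 was high in goblet-like and club-like cells and Scgb3a1 in gland-like, goblet-like and club-like cells, whereas Scgb3a2 was also found far into the basal compartment. Goblet-like, gland-like and club-like cells together made up 2.87 ± 0.92% of the kept cells and held 73.3 ± 5.94% of all Scgb1a1 UMIs, 70.4 ± 4.86% of all Scgb3a1 UMIs and 34.2 ± 15.1% of all Scgb3a2 UMIs. All basal classes and the intermediate class, 42.8 ± 9.38% of the cells, held 5.48 ± 3.35% of the Scgb1a1, 3.96 ± 1.78% of the Scgb3a1 and 46.5 ± 14.5% of the Scgb3a2 UMIs. Cells with several or no compartments or several epithelial gates were 19.7 ± 2.51% of the cells. They held 14.3 ± 1.36% of the Scgb1a1, 10.8 ± 1.80% of the Scgb3a1 and 8.99 ± 2.95% of the Scgb3a2 UMIs. Those with no compartment were shallow, at medians of 2334, 3402.5 and 2940 UMIs, and held Scgb1a1 at 877, 1412 and 774 CPM. Whether they included secretory cells that the gates missed was not tested.

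**Figure D1:**
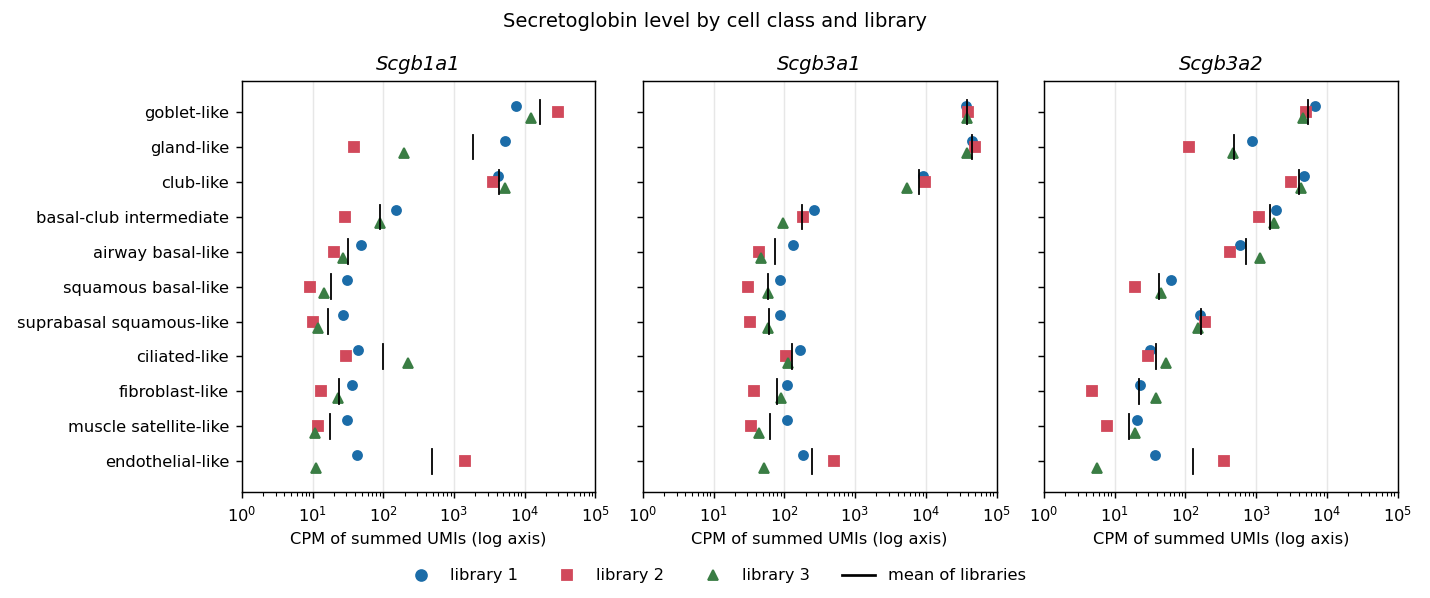
Level of Scgb1a1, Scgb3a1 and Scgb3a2 (x axis, CPM of summed UMIs on a log axis) in 11 cell classes (y axis), with 1 point for each of the 3 libraries and a line at their mean. Scgb3a2 steps down from 4040 CPM in club-like to 1586 CPM in intermediate and 714 CPM in airway basal-like cells, whereas Scgb1a1 and Scgb3a1 drop from 4323 and 8102 CPM in club-like to 91.2 and 179 CPM in intermediate cells.

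Scgb1a1 RNA was found at 4143, 3536 and 5291 CPM in club-like cells of libraries 1, 2 and 3. In goblet-like cells it was at 7624, 29280 and 12406 CPM. Every goblet-like value lay above every club-like value, but with gates stricter by 1 marker the order was reversed, at 5824, 11800 and 8643 CPM in club-like and 4260, 5270 and 4786 CPM in goblet-like cells. Cells that passed both gates counted as goblet-like, so the order depends on how the gates divide such cells, and their part in it was not tested. Library 2 was far above the other two in the goblet-like cells of the original gates, which numbered 100, 48 and 79. These levels rested on few cells: the top 10, 5 and 8 goblet-like cells held 89.7, 82.1 and 90.8% of the Scgb1a1 UMIs, and the median cell held 3.5, 1 and 0. In intermediate cells Scgb1a1 was at 153, 29.1 and 91.0 CPM, in airway basal-like cells at 48.1, 20.1 and 27.1 CPM, and in squamous basal-like cells at 31.0, 9.29 and 14.6 CPM. Without the cell with most UMIs of each library, intermediate cells were at 124, 22.7 and 46.1 CPM. Library 1 was highest in each of these classes. Neighbouring classes overlapped between libraries, but within each of the 3 libraries the level stepped down in this order.

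These lower levels have to be read against the background, since free RNA gives UMIs to cells that do not make the gene. Muscle satellite-like cells, which should lack secretoglobins, held Scgb1a1 at 30.3, 12.015 and 10.8 CPM, with library 1 again highest. Airway basal-like levels were above those of satellite-like cells in 3 of 3 libraries and squamous basal-like levels in 2 of 3. Endothelial-like cells held it at 43.0, 1424 and 11.4 CPM, where library 2 had only 30 such cells and 1 of them carried 471 of the 473 UMIs. Without the cell with most UMIs that library stood at 6.12 CPM. With that cell left out of each class, airway basal-like cells stayed above satellite-like cells in 3 of 3 libraries. In library 1 they were just below endothelial-like cells (39.9 CPM) but above fibroblast-like cells (34.5 CPM). In library 3 they were just below fibroblast-like cells, at 22.2 against 22.8 CPM. In library 2 they were above both classes, at 17.5 CPM. Airway basal-like Scgb1a1 was thus not set apart from background in every library.

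In gland-like cells, the secretory cells of the submucosal glands, Scgb1a1 was at 5273, 38.4 and 197 CPM. The spread came from few cells: without the cell with most UMIs of each library the levels were 65.5, 29.7 and 49.1 CPM, close to those of intermediate and basal cells. Ciliated-like cells held 43.9, 29.3 and 221 CPM, and 42.2, 15.04 and 14.7 CPM without the cell with most UMIs, which turned library 3 from the highest to the lowest.

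Scgb3a1 RNA was highest in gland-like and goblet-like cells. In gland-like cells it was at 45329, 49948 and 38286 CPM, and in goblet-like cells at 36910, 39222 and 38607 CPM. These 2 classes overlapped, and on average 4.45 ± 0.587% of all UMIs of gland-like cells were Scgb3a1. Part of the gland-like cells carried this level: the median cell held 211, 7 and 6 Scgb3a1 UMIs, against 361.5, 572 and 152 in goblet-like cells, and 9, 13 and 57 of 45, 29 and 115 gland-like cells held only 1 to 9. Club-like cells followed without overlap at 9092, 9781 and 5434 CPM. Epithelial cells in none of the named classes held 3391, 1638 and 3467 CPM, again below every club-like value.

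With the basal set present, Scgb3a1 was low. Intermediate cells held 259, 181 and 96.6 CPM, airway basal-like cells 132, 44.5 and 46.8 CPM, and squamous basal-like cells 88.02, 30.3 and 58.5 CPM. Satellite-like cells held 111, 34.0 and 44.1 CPM, so that both basal-like ranges overlapped with the background range. Within libraries, airway basal-like cells were above satellite-like cells in 3 of 3 and squamous basal-like cells in 1 of 3. Fibroblast-like cells held 109, 36.7 and 89.3 CPM, above airway basal-like cells in library 3. Endothelial-like cells held 184, 506 and 51.2 CPM, above them in each library. Without the cell with most UMIs, endothelial-like cells held 120, 27.6 and 43.8 CPM and airway basal-like cells 109, 36.4 and 45.6 CPM. Airway basal-like Scgb3a1 was thus not set apart from background. The share of cells with an Scgb3a1 UMI shows the same background: 94.3, 69.6 and 71.9% of club-like cells, at a median of 20082 UMIs in library 1, but also 53.3, 24.6 and 23.9% of satellite-like cells, at a median of 7635 UMIs there. Thinned to 5000 UMIs per cell, the shares were 73.0, 42.8 and 49.6% in club-like and 38.4, 16.5 and 18.2% in satellite-like cells. Thinning to a depth, here and below, left out cells with fewer UMIs than that depth, so these shares cover fewer cells than those at full depth.

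Scgb3a2, at chr18:43897354-43900474 on the plus strand, had RNA over the widest range of the epithelium. Goblet-like cells held 6745, 5111 and 4612 CPM and club-like cells 4711, 3116 and 4292 CPM, and these ranges overlapped. Goblet-like cells were higher in 3 of 3 libraries, but with gates stricter by 1 marker they were lower in libraries 1 and 3 and about equal in library 2. Intermediate cells held 1885, 1110 and 1762 CPM, below every club-like value. Airway basal-like cells held 590, 428 and 1124 CPM, with library 3 highest and just above the lowest intermediate value, and below intermediate cells in 3 of 3 libraries.

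Squamous basal-like cells held Scgb3a2 at 63.1, 19.2 and 45.0 CPM, each below every airway basal-like value. The basal gate was the same for both, and Nkx2-1 and Tmprss11a alone divided them. Basal-like cells with both of these genes above 1 UMI held 491 ± 125 CPM. The remaining basal-like cells held 402 ± 202 CPM. They were not free of these genes, as they could carry 1 UMI of either, or more of 1 gene with 1 UMI of the other. Suprabasal squamous-like cells, the differentiating layer of the stratified epithelium, held 163, 190 and 151 CPM. Gland-like cells held 889, 112 and 475 CPM, and ciliated-like cells 32.1, 30.04 and 53.9 CPM. Without the cell with most UMIs of each library, gland-like cells held 401, 77.0 and 275 CPM and ciliated-like cells 29.1, 11.3 and 41.6 CPM. The satellite-like background was at 21.0, 7.76 and 19.5 CPM.

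The share of cells with Scgb3a2 followed the same order after thinning to 5000 UMIs: 81.4, 69.8 and 82.6% of club-like, 71.8, 56.2 and 72.8% of intermediate, 49.0, 35.3 and 60.6% of airway basal-like, 12.4, 5.5 and 15.1% of squamous basal-like and 9.2, 3.6 and 9.0% of satellite-like cells. Airway basal-like and squamous basal-like shares did not overlap, whereas squamous basal-like and satellite-like shares did, the first being higher within 3 of 3 libraries. At full depth, 69.3, 54.9 and 72.2% of airway basal-like and 14.6, 6.5 and 11.6% of satellite-like cells had an Scgb3a2 UMI. In library 2, the one with fewest cells, the Wilson 95% interval ran from 49.6 to 60.1% in airway basal-like cells (median 19084 UMIs) and from 4.81 to 8.74% in satellite-like cells (median 8652 UMIs), counting error only.

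Scgb1c1 was nearly silent. The kept cells of libraries 1, 2 and 3 held 30, 19 and 34 UMIs in 27, 15 and 33 cells. Club-like cells held 5, 5 and 4 of these UMIs, goblet-like cells 3, 4 and 6, and gland-like cells 0, 3 and 4. Club, goblet and gland-like cells thus held 43.7 ± 18.4% of the few UMIs. Epithelial cells in none of the named classes held 14, 3 and 6 UMIs, in library 1 more than these 3 classes together. In satellite-like cells it was found in 0 of 691, 615 and 1039 cells, which allows a share of up to 0.434, 0.488 and 0.289% of cells with a UMI. It did not pass the filter on low counts in any comparison. Without that filter, gland-like against club-like cells gave a log2 difference of 1.38 (SE 0.93, adjusted p = 0.436, edgeR), which was not called.

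The other 31 secretoglobin features, mostly the Scgb1b and Scgb2b families known for androgen-binding proteins, held 1530 UMIs in all, 73.6% of them in gland-like cells. No UMI was seen for 13 of them, 16 had between 1 and 99 UMIs, and only Scgb2b2 and Scgb1b3 had more. Scgb2b2 had 2, 723 and 70 UMIs in gland-like cells of libraries 1, 2 and 3, in 9 cells, and 0 in club-like cells. Scgb1b3, at chr7:31075017-31076341, had 53, 90 and 9 UMIs in gland-like cells, in 14 of 189 cells, and 0 in club-like cells. With the 3 libraries pooled and 3 counts over the club-like group as the floor (0.211 CPM), Scgb1b3 was at least 227-fold higher in gland-like cells (47.9 CPM). This is a bound for the pooled UMIs, not for each library, and covers no spread between libraries. Of all Scgb1b3 UMIs, 56.3% were in gland-like cells. The gene passed the filter on low counts only through the gland-like cells. Without library 2 the bound was 85.8-fold, without library 1 it was 107-fold and without library 3 it was 344-fold, and the gland-like levels were 66.0, 150 and 5.09 CPM in libraries 1, 2 and 3. Members of these families are near-identical copies, so the counts of single genes are uncertain.

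UMIs outside the secretory classes were also described by the ratio of the members, since free RNA of 1 source keeps its genes in 1 ratio. Satellite-like cells held 3.69, 2.84 and 4.11 Scgb3a1 UMIs per Scgb1a1 UMI, fibroblast-like cells 3.05, 2.77 and 3.87, and squamous basal-like cells 2.84, 3.26 and 3.998. Airway basal-like cells were below each of these in their library, at 2.74, 2.22 and 1.73. Intermediate cells held 1.69, 6.24 and 1.06, and ciliated-like cells 3.76, 3.66 and 0.504. The library 3 values rested on single cells, as 1 ciliated-like cell held 867 of 929 and 1 intermediate cell 692 of 1400 Scgb1a1 UMIs. Gland-like cells stood apart at 8.60, 1300 and 194, where 1 cell held 4186 of the 4237 Scgb1a1 UMIs of library 1, and club-like cells held 2.19, 2.77 and 1.03.

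For Scgb3a2 the ratio was not the same in all classes. Satellite-like cells held 0.181, 0.223 and 0.432 Scgb3a2 UMIs per Scgb3a1 UMI, and fibroblast-like cells 0.209, 0.133 and 0.435. Squamous basal-like cells held 0.717, 0.632 and 0.768, suprabasal squamous-like cells 1.85, 5.83 and 2.55, airway basal-like cells 4.48, 9.62 and 24.0 and intermediate cells 7.27, 6.12 and 18.2. Each of these classes lay above the satellite-like range in all 3 libraries. In club-like cells the ratio was 0.518, 0.319 and 0.790, in goblet-like cells 0.183, 0.130 and 0.119, and in gland-like cells 0.0196, 0.00224 and 0.0124. These ratios compare classes, not the amounts of the genes with each other, since 3' counting can differ between genes.

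**Figure D2:**
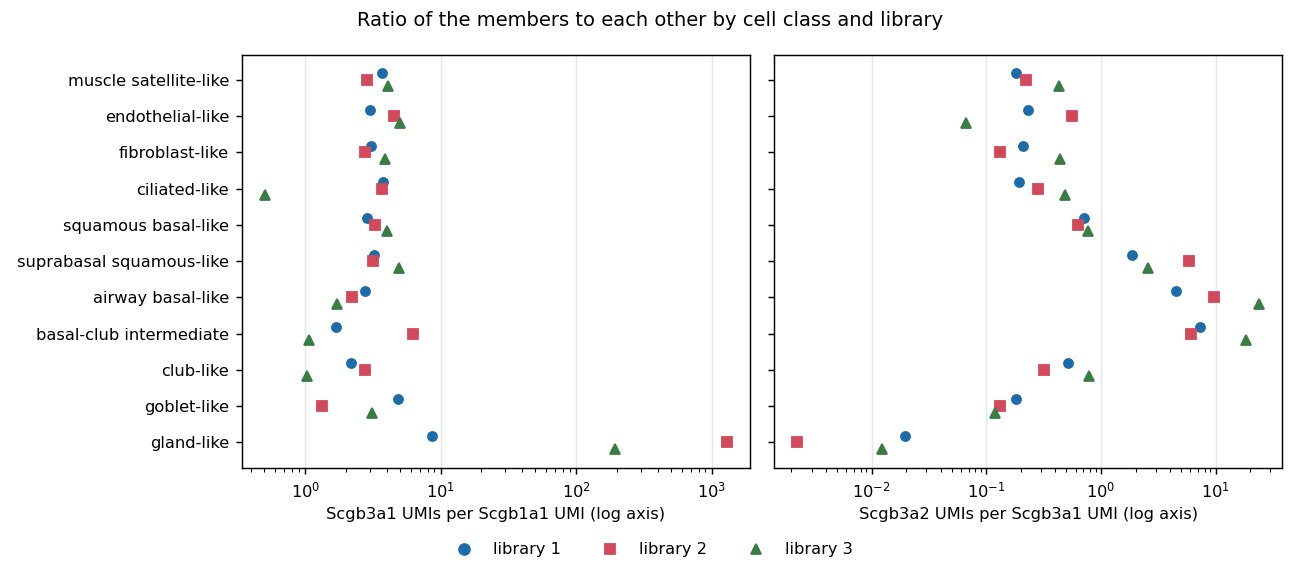
Scgb3a1 UMIs per Scgb1a1 UMI and Scgb3a2 UMIs per Scgb3a1 UMI (x axes, log) in 11 classes (y axis), with 1 point for each library; the cell with most UMIs is left out in satellite-like and endothelial-like cells. The second ratio runs from 0.00224 in gland-like cells of library 2 to 24.0 in airway basal-like cells of library 3.

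Within the club-like class the members were spread over cells very unequally. The top 10% of club-like cells held 96.3 ± 2.56% of the class's Scgb1a1 UMIs, 80.4 ± 8.31% of its Scgb3a1 UMIs and 45.8 ± 6.71% of its Scgb3a2 UMIs. At least 100 Scgb1a1 UMIs were seen in 25, 11 and 19 of 317, 161 and 242 club-like cells. The club-like cell with most Scgb1a1 held 3582, 2794 and 7915 UMIs of it, which was 12.4, 7.35 and 33.6% of all UMIs of that cell. Cells with at least 100 Scgb3a2 UMIs numbered 103, 39 and 62, and cells with at least 100 Scgb3a1 UMIs 90, 34 and 32. The Scgb1a1 level of the class therefore rested on few cells, and that of Scgb3a2 on many.

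Over all kept cells, the top 1% held 91.8 ± 4.71% of the Scgb1a1, 81.8 ± 5.13% of the Scgb3a1 and 40.5 ± 7.02% of the Scgb3a2 UMIs.

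**Figure D3:**
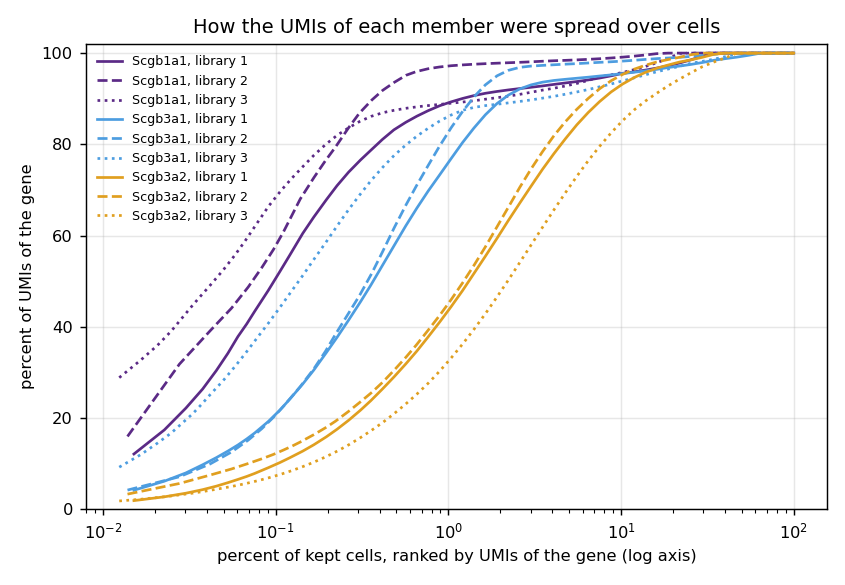
Percent of all UMIs of a member (y axis) held by the cells that rank highest for it (x axis, percent of kept cells, log), with 1 line for each member and library. Scgb1a1 lines rise earliest, reaching 88.9 to 97.2% of UMIs in the top 1% of cells, and Scgb3a2 lines latest, at 32.5 to 45.4%.

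To ask which members a cell held together, a member was called when its UMI count in the cell was above the 99th percentile of the satellite-like and endothelial-like cells of the same library, which was 3, 1 and 1 UMIs for Scgb1a1, 5, 2 and 2 for Scgb3a1 and 2, 1 and 1 for Scgb3a2. In airway basal-like cells Scgb3a2 alone was called in 41.2 ± 10.6% and no member in 50.8 ± 10.98% of cells. In intermediate cells Scgb3a2 alone was called in 58.4 ± 4.75% of cells and no member in 25.1 ± 4.65%. Scgb3a2 called without the other members was thus the most frequent state of intermediate cells.

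In club-like cells, Scgb3a2 alone was called in 32.2 ± 5.80%, all 3 members in 21.2 ± 4.96%, Scgb3a1 with Scgb3a2 in 18.2 ± 5.00%, Scgb1a1 with Scgb3a2 in 6.90 ± 2.39% and no member in 15.2 ± 4.04% of cells. Scgb1a1 alone was called in 0.969 ± 0.782% of them. Most club-like cells called for Scgb1a1 were therefore also called for Scgb3a2, as were 81.1, 70.2 and 84.3% of all club-like cells. Many called for Scgb3a2 were not called for Scgb1a1, though they could hold UMIs of it up to the threshold. In goblet-like cells all 3 members were called in 40.1 ± 8.84% and Scgb3a1 alone in 29.8 ± 8.95% of cells. In gland-like cells Scgb3a1 alone was called in 42.9 ± 12.9% and no member in 23.7 ± 3.80%.

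**Figure D4:**
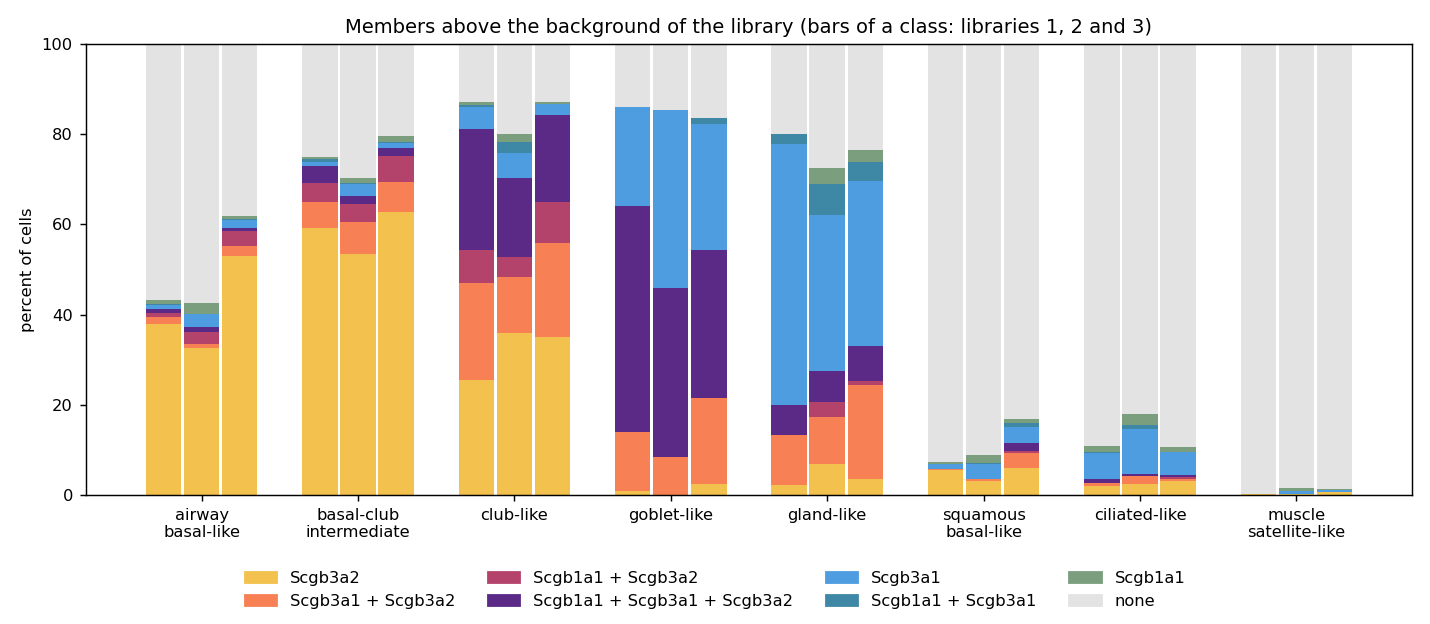
Percent of cells (y axis) with each combination of Scgb1a1, Scgb3a1 and Scgb3a2 above the background of the library, as stacked bars for 8 classes, with 1 bar for each library. The share with Scgb3a2 alone is 58.4% on average in intermediate and 32.2% in club-like cells, and satellite-like cells, which set the threshold together with endothelial-like cells, are nearly all without a call by construction.

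This call is a raw count, and the cells that set the threshold had medians of 7576, 8620 and 5988 UMIs. Club-like cells had medians of 20082, 21659 and 15381 UMIs, so background can pass it more easily in them in every library. A further limit lies in library 3, where 10.2% of fibroblast-like cells were called for Scgb3a1 and 9.0% for Scgb3a2, against 0.8 and 1.9% for Scgb3a1 and 0.9 and 0.0% for Scgb3a2 in libraries 1 and 2. Squamous basal-like cells were called for Scgb3a1 in 1.4, 3.8 and 9.4%. The share of cells with markers of several compartments was also highest in library 3, at 6.35% against 1.16 and 0.778%, and its part in these calls was not tested.

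With each cell thinned to 5000 UMIs and 1 UMI as the call, club-like cells held both Scgb1a1 and Scgb3a1 1.33 ± 0.22 times as often as the product of the single shares. The value was 1.16 ± 0.07 for Scgb1a1 with Scgb3a2 and 1.07 ± 0.04 for Scgb3a1 with Scgb3a2. The share of the commoner member caps this value, so pairs with the frequent Scgb3a2 had less room to rise and the pairs cannot be ranked by it. In goblet-like cells Scgb1a1 and Scgb3a2 stood at 1.65 ± 0.29. These values describe cells of the same libraries, which share free RNA, and carry no test.

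Club-like cells divided by Scgb1a1 differed in Scgb3a2 in every library. Cells called for Scgb1a1 numbered 111, 42 and 70, and held Scgb3a2 at 7984, 6379 and 7013 CPM, against 2854, 2171 and 3227 CPM in the 206, 119 and 172 other club-like cells, without overlap. Scgb3a1 was at 13403, 31044 and 5615 CPM against 6646, 3623 and 5363 CPM, nearly equal in library 3 and with overlap between libraries. A Lrig1 UMI was found in 45.0, 47.6 and 51.4% of the cells with Scgb1a1 and in 66.5, 65.5 and 59.3% of those without. The median depth was 21532, 17900 and 15419 UMIs against 19244, 22687 and 15378 UMIs.

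Club-like cells were then compared with airway basal-like cells by edgeR's quasi-likelihood test on UMIs summed per library and class, with all other genes in the same fit, genes used in the gates left out, and a difference called at a Benjamini-Hochberg adjusted p of at most 0.05. All 3 members that passed the filter on low counts were higher in club-like cells, where 14% of the 12950 genes tested were called higher, 10.6% lower and 24.6% in either direction. Scgb1a1 was 7.35 higher on the log2 scale (SE 0.40, adjusted p = 1.21e-05, edgeR) and Scgb3a1 7.03 higher (SE 0.57, adjusted p = 6.94e-05, edgeR). For both genes airway basal-like levels lay near the background, so these differences are taken against a level that can include free RNA. Scgb3a2, which airway basal-like cells already held, was 2.79 higher (SE 0.34, adjusted p = 0.000594, edgeR). The 3 differences came with a median of -0.0043 over all genes tested.

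Against intermediate cells, club-like cells were again higher in all 3 members tested, where 9.19% of 12931 genes were called higher and 17% called in either direction. The log2 difference was 5.78 for Scgb1a1 (SE 0.56, adjusted p = 0.000201), 5.71 for Scgb3a1 (SE 0.44, adjusted p = 7.07e-05) and 1.57 for Scgb3a2 (SE 0.24, adjusted p = 0.00247), all by edgeR. In both comparisons no member's groups overlapped between libraries. Both share the club-like sums.

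Gland-like cells were compared with club-like cells in the same way, where 7.51% of 11139 genes were called higher, 4.48% lower and 12% in either direction. Scgb3a1 was 2.79 higher in gland-like cells (SE 0.34, adjusted p = 0.000512, edgeR) and Scgb3a2 was 2.66 lower, a log2 difference of -2.66 (SE 0.59, adjusted p = 0.0154, edgeR). The call of Scgb3a2 was lost without replicate 3, at -2.58 with an adjusted p of 0.133 in edgeR. Scgb1a1 was not called, at -0.81 (SE 1.18, adjusted p = 0.740, edgeR), with library 1 resting on few cells as above. With the library as a replicate block, which called 9.77% of genes higher, 7.17% lower and 16.9% in either direction, it was at -3.34 (SE 1.13, adjusted p = 0.0742, edgeR). Without replicate 1 it was at -4.81 (adjusted p = 0.0115, edgeR).

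Known regulators of airway secretory genes were described as a list of 18, of which 3 were gate genes. Of 14 tested between club-like and airway basal-like cells, Elf5 and Foxa3 passed the filter on low counts only through the club-like cells and so could only be higher. They were at 9.69 ± 4.09 and 2.90 ± 1.72 CPM in club-like and 0.532 ± 0.136 and 0.027 ± 0.047 CPM in airway basal-like cells. Of the 12 that reached the filter's level (1.49 CPM here) in at least 1 library of each group, 4 were higher and 1 lower by edgeR, beside 14% and 10.6% over all genes, with a median log2 difference of 0.20. The higher ones were Xbp1 (1.67), Ehf (1.18), Elf3 (0.85) and Hes1 (0.73), the last a target of Notch signalling, and Cebpa was lower (-0.46). With the library as a replicate block, 6 of 12 were higher and 2 lower, where 22.1% of genes were called higher, 18.7% lower and 40.8% in either direction. Nkx2-1, whose presence the gate of airway basal-like cells asked for, was at 201 ± 37.3 CPM in airway basal-like, 143 ± 34.3 CPM in intermediate and 89.3 ± 26.3 CPM in club-like cells.

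Against intermediate cells, 4 of the 13 regulators that reached the filter's level in both groups were higher and 1 lower in club-like cells, where 9.19% of all genes were called higher and 7.82% lower. With the replicate block 8 of 13 were higher and 1 lower, where 14.8% of genes were called higher, 13% lower and 27.8% in either direction. Sox9, a factor of submucosal gland cells, was higher in both fits, at a log2 difference of 2.66 without the block. Against airway basal-like cells, which held it at 19.7 ± 1.67 CPM and club-like cells at 11.6 ± 3.31 CPM, Sox9 went the other way (-0.47, adjusted p = 0.149 without and 0.046 with the block, edgeR). In gland-like against club-like cells, where 7.51% of all genes were higher and 4.48% lower, 5 of the 14 regulators at the filter's level in both groups were higher, among them Sox9 (3.73) and Xbp1 (1.83), a factor of secretory cells with heavy protein load, and 2 were lower, Cebpb and Hes1 (-0.63). With the block, beside 7.17% lower over all genes, 4 were lower, with Elf3 and Foxa1 beside them. Foxa2 passed the filter only through the gland-like cells and was at 20.05 ± 5.2 CPM in gland-like and 1.7 ± 0.7 CPM in club-like cells.

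Of 6 proposed partners of secretoglobins, 3 had UMIs in club-like, goblet-like and gland-like cells, Sdc1 at 122.9, 52.8 and 45.8 CPM on average, Lmbr1l at 17.3, 17.1 and 18.2 CPM and Lrp2 at lower levels, and Marco, a scavenger receptor of macrophages, Fpr2, a formyl peptide receptor, and Cubn had 0 UMIs in these classes. Of the 6 genes only Lmbr1l and Sdc1 passed the filter on low counts between club-like and airway basal-like cells, and both were lower in club-like cells, beside 10.6% of all genes, at log2 differences of -0.89 and -0.70 by edgeR. Sdc1, a heparan sulfate proteoglycan of epithelial cells, was also lower against intermediate cells (-0.88) and in gland-like against club-like cells (-1.11), and Lmbr1l was called in neither, except with the replicate block against intermediate cells (-0.39). Lrp2, an endocytic receptor, was at 7.11 ± 3.94 CPM in gland-like and 1.37 ± 1.46 CPM in club-like cells. In that comparison it passed the filter only with the block and only through the gland-like cells. With the block it was also tested between club-like and intermediate cells, and was not called.

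Other secreted products of the airway were also higher in club-like cells. Between club-like and airway basal-like cells 10 of the 13 at the filter's level in both groups were higher and 0 lower by edgeR, beside 14% higher and 10.6% lower over all genes, with a median log2 difference of 2.88. Chil4, which is not counted here, passed the filter only through the club-like cells. Among them were Ltf, the iron-binding lactoferrin (7.88), Lyz2, a lysozyme (6.91), Pigr, which carries IgA into the lumen (6.78), Reg3g, an antibacterial lectin (6.08), and Bpifa1 (5.64). Bpifa1 reached 98332 ± 23406 CPM in club-like cells and 13695 ± 2512 CPM in intermediate cells. Against intermediate cells 12 of 14 were higher, beside 9.19% of all genes, with a median of 2.83. With the block 12 of 13 were higher against airway basal-like and 14 of 14 against intermediate cells, beside 22.1 and 14.8% of all genes. In gland-like against club-like cells 6 of 12 were higher, beside 7.51% of all genes, led by Tff2 (9.51), Bpifb1 (7.34) and Wfdc18 (7.01), with a median of 1.06, and with the block 8 of 13 were higher and Bpifa1 was lower, beside 9.77 and 7.17% of all genes.

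The genes most like each member over 46 class-by-library sums of 16 classes were found among 14542 genes by Pearson's r of log2(CPM + 1), as a description over sums that share libraries. For Scgb1a1 they were Pon1 and Sult1c2 (r = 0.85 each), Sftpa1 (0.84), a surfactant protein, and Slc34a2 and Sult1c1 (0.82 each). For Scgb3a1 they were Muc5b (0.96) and Dmbt1 (0.94), both gate genes, with Gp2 (0.95), Slc34a2 and Tff2 (0.91 each). For Scgb3a2 they were Atp6v1b1 (0.88), a proton pump subunit, Pon1 (0.87), Cldn22 (0.86), and Muc1 and Clca1 (0.85 each). Scgb1a1 and Scgb3a1 stood at r = 0.82 to each other, Scgb1a1 and Scgb3a2 at 0.71, and Scgb3a1 and Scgb3a2 at 0.57.

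Last, cells with at least 1 Lrig1 UMI (Lrig1+) were compared with cells of the same class without one (Lrig1-). A Lrig1 UMI was found in 59.0, 60.9 and 57.0% of club-like and 71.6, 76.9 and 76.7% of intermediate cells. Lrig1+ cells were deeper: club-like medians were 22921, 23476 and 17527 UMIs against 15566, 17667 and 13597 UMIs, and the part of depth in the split was not tested beyond the alternative with thinned counts.

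In club-like cells Scgb3a2 was at 4235, 2767 and 3946 CPM in Lrig1+ and 5624, 3786 and 4883 CPM in Lrig1- cells, lower with Lrig1 in 3 of 3 libraries, although the groups overlapped between libraries. The share of cells with an Scgb3a2 UMI after thinning was 81.2, 66.3 and 80.3% against 81.6, 75.4 and 85.9%, nearly equal in library 1. Scgb3a1 was at 6227, 5426 and 6346 CPM against 14577, 18161 and 3877 CPM, lower in libraries 1 and 2 and higher in library 3. Scgb1a1 was at 3052, 2602 and 6618 CPM against 6231, 5333 and 3025 CPM, with the same split of libraries, where 1 club-like cell of library 3 held 7915 Scgb1a1 UMIs.

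By edgeR without a block, none of the 3 members was called in club-like cells, where 0% of 10961 genes were called and 341 had an unadjusted p under 0.05. DESeq2 also called 0 genes. The log2 differences were -0.40 for Scgb1a1 (SE 0.37), -1.17 for Scgb3a1 (SE 0.45) and -0.52 for Scgb3a2 (SE 0.24), each with an adjusted p of 1.00 in edgeR. With the library as a replicate block, which called 0.115% of 11285 genes higher, 0.213% lower and 0.328% in either direction, Scgb3a2 was lower with Lrig1 at -0.53 (SE 0.06, adjusted p = 0.000527, edgeR), while Scgb1a1 (-0.48, adjusted p = 0.608) and Scgb3a1 (-0.92, adjusted p = 0.268) were not called. Of 16 other secreted products tested, 7 were also lower in that fit, beside 0.213% of all genes, among them Lcn2 (-0.97), Bpifb1 (-0.85), Bpifa1 (-0.84) and Lyz2 (-0.78), against 0 without the block, where their median was -0.67. Other settings changed calls or values of the members. Without the filter on low counts and without the block Scgb3a1 was called lower (-1.15, adjusted p = 1.91e-05, edgeR), at nearly the same difference as with the filter. With Lrig1 groups set on counts thinned to 5000 UMIs, a setting chosen after seeing the data, Scgb1a1 was at 0.23 without the block, in the other direction. Scgb3a1 was called lower with the block there (-1.29, adjusted p = 7.11e-21, edgeR). The smallest adjusted p of all genes in edgeR was 0.99974 with the filter and no block. It was 6.54e-22 without the filter and 5.55e-25 with the thinned groups and the block. Values so small cannot measure the spread of 3 pools, so these calls show dependence on settings only.

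In intermediate cells Scgb3a2 was at 1633, 1080 and 1662 CPM in Lrig1+ and 2593, 1229 and 2145 CPM in Lrig1- cells, again lower with Lrig1 in 3 of 3 libraries, with overlap between libraries. The share of cells with an Scgb3a2 UMI after thinning to 5000 UMIs had no common direction, at 72.7, 54.9 and 72.6% in Lrig1+ and 69.7, 60.7 and 73.3% in Lrig1- intermediate cells. Scgb1a1 was at 122, 31.8 and 101.5 CPM against 241, 18.4 and 50.4 CPM, and Scgb3a1 at 186, 200 and 96.4 CPM against 466, 106 and 97.4 CPM, with no common direction. The log2 differences at full depth were -0.29 for Scgb1a1 (SE 0.69) and -0.49 for Scgb3a1 (SE 0.53), each with an adjusted p of 1.00 in edgeR, and with the block -0.021 (adjusted p = 0.999, edgeR) and -0.30 (adjusted p = 0.888, edgeR). With groups set on thinned counts (also chosen after seeing the data) and the block, Scgb1a1 was called higher with Lrig1 (0.87, adjusted p = 2.72e-08, edgeR) and Scgb3a1 lower (-0.69, adjusted p = 5.92e-07, edgeR). At full depth the libraries disagreed in direction for both genes, and p-values this small cannot measure the spread of 3 pools. Without a block 0% of 12223 genes were called by edgeR, 324 had an unadjusted p under 0.05, and DESeq2 called 1. With the block, which called 0.0478% of 12542 genes higher, 0.0159% lower and 0.0638% in either direction, Scgb3a2 was called at -0.44 (SE 0.06, adjusted p = 0.0177, edgeR), and of the other secreted products 0 were. This SE is smaller than the spread of the 3 library values above would give.

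The difference between the Lrig1 effects of the 2 classes was tested as an interaction and was not called for any member, at -0.10 (SE 0.94) for Scgb1a1, -0.68 (SE 0.81) for Scgb3a1 and -0.04 (SE 0.38) for Scgb3a2. No gene of 11747 was called in edgeR, 281 had an unadjusted p under 0.05, and DESeq2 called 0. With the block the Scgb3a2 value was -0.09 (SE 0.12, adjusted p = 0.997, edgeR).

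**Figure D5:**
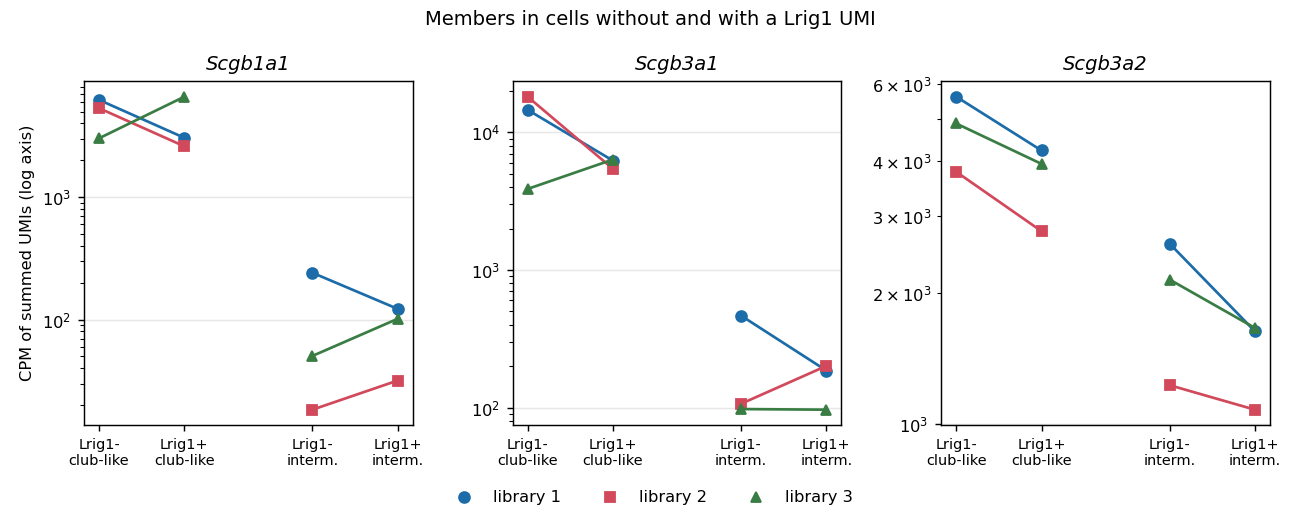
Level of Scgb1a1, Scgb3a1 and Scgb3a2 (y axes, CPM of summed UMIs, log) in Lrig1- and Lrig1+ cells of the club-like and intermediate (interm.) classes, with a line joining the 2 sums of each library. The Scgb3a2 lines fall from Lrig1- to Lrig1+ in 3 of 3 libraries in both classes, whereas those of Scgb1a1 and Scgb3a1 fall in some libraries and rise in others.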

How the data were processed

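Single-cell RNA was measured in 3 libraries (10x Chromium GEM-X 3' v4). The authors aligned reads to GRCm39 (mm39) with Cell Ranger 8.0.1 and deposited raw UMI counts per gene and barcode, before limits on cells and doublet removal. The limits were 500 to 8000 genes per barcode, 1000 to 40000 UMIs, and mitochondrial RNA of 8% at the most, with genes and UMIs exchanged against the study's wording. Doublet-like barcodes (1030, 326 and 3495) were removed by similarity to simulated doublets, at 0.4% per 1000 barcodes. Depth is given with the results.

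Cells were classed by gates on markers (at least 3 of 6 epithelial, 4 of 8 basal, 6 of 8 club, 3 of 6 goblet and 2 of 6 gland markers), epithelial subclass markers counting above the 99th percentile of satellite-like and endothelial-like cells. Classes needed 20 cells in a library. The members and lists were chosen with earlier results of these data known. Genes named were the 4 members, other secretoglobins, the lists of regulators, partners and products, and the 5 genes most like each member with at least 10 CPM in a class.

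UMI counts summed per library and class were tested by edgeR 4.0.16 under R 4.3.3 (two-sided quasi-likelihood test, TMM factors, low genes removed by filterByExpr), with DESeq2 1.42.0, normalization, filter, thinning, gates, doublets and left-out libraries as alternatives. List counts over genes at the filter's level in both groups were chosen after seeing the data. P-values compare sums of 3 pools of animals, but rest in part on a spread shared over genes. They and the SE can thus be smaller than a gene's own spread between pools would give. The SE of edgeR was the log2 difference divided by the square root of its F statistic. Same-numbered sums come from the same pool and deviated together (correlations 0.282 to 0.772), so the library block is a paired fit. On simulated counts, edgeR recovered 82% of genes changed by log2 1 and 100% by log2 2 between club-like and airway basal-like sums, with 7 false calls among 12775 genes. Only well-counted genes were changed, and the simulated sums had no library effect, so recovery in the real sums can differ. Limits from a count of 0 (3 counts) cover counting error only. Annotation was GENCODE M39 (33185 of 33696 features matched), and promoters were RefSeq GRCm38.p6.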

Additional observations from a re-analysis of the deposited data

Results flagged for a closer look

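Cells that passed the markers of several compartments or of none entered no comparison, and some of these sets were called for secretoglobins more often than the satellite-like and endothelial-like cells that set the threshold, of which together at most 1% were called by construction. Fibroblast-like cells, which did not set it, were called for Scgb1a1 in 0.301, 0.826 and 3.82%, for Scgb3a1 in 0.802, 1.93 and 10.2% and for Scgb3a2 in 0.902, 0.0 and 8.99% in libraries 1, 2 and 3. Among cells with markers of several compartments, 10.7% were called for Scgb3a2 in library 2, and 35.2% for Scgb1a1, 79.2% for Scgb3a1 and 58.9% for Scgb3a2 in library 3. Among cells with no compartment, 14.4% were called for Scgb3a1 and 19.4% for Scgb3a2 in library 3. Library 3 held 1532 cells with several compartments, against 154 and 56 in libraries 1 and 2. It also had the most barcodes removed as doublet-like, a number set in advance by its counts of barcodes and of cells within the limits. The part of either value in these shares was not tested.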

How the results depend on the processing

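In club-like against airway basal-like and against intermediate cells, all 30 values of the 3 members under alternatives in each kept direction and call. With 3 pooled libraries, small classes rest on few cells, and 1 cell could set a level, as in endothelial-like cells of library 2, ciliated-like cells of library 3 and gland-like cells of library 1 for Scgb1a1. Called genes in club-like against airway basal-like numbered 5469 with the replicate block, 1920 with cells thinned to 5000 UMIs and 1049 to 2953 with a replicate left out. Against intermediate cells they numbered 3708 with the block, 1267 thinned, 1299 with gates stricter by 1 marker and 534 to 1690 with a replicate left out. In gland-like against club-like they numbered 2162 without the filter on low counts, 678 thinned and 472 to 1281 with a replicate left out. DESeq2 put the median log2 difference of all genes there at 0.13, against -0.04.

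The paired fit, with the library as a replicate block, called 37 genes for Lrig1 in club-like and 8 in intermediate cells, and changed no other call of a member than Scgb3a2. Without the low count filter 33 and 38 were called, and 17 for the interaction. DESeq2 called 1 in intermediate cells, leaving out a replicate gave 0 to 0 in club-like and 0 to 3 in intermediate cells, and Lrig1 groups set on thinned counts with the block gave 31 and 32. P-values with thinned groups and the block were too small to measure the spread of 3 pools. Groups set on thinned counts were chosen after seeing the data. They put Scgb1a1 with Lrig1 at 0.23 in club-like cells and 0.82 in intermediate cells, or 0.87 with the block (adjusted p = 2.72e-08, edgeR), where the values at full depth were -0.40, -0.29 and -0.021, with 2 of 3 libraries higher in intermediate cells, and Scgb3a2 with the block at -0.47 and -0.29. With a replicate left out, the log2 difference with Lrig1 in intermediate cells ran from -0.81 to 0.86 for Scgb1a1 and from -1.01 to 0.52 for Scgb3a1, both highest without replicate 1, and Scgb3a1 was at 0.056 with doublet-like barcodes kept. The interaction ran from -0.90 to 0.30 for Scgb1a1, -1.60 to 0.32 for Scgb3a1 and -0.19 to 0.072 for Scgb3a2, each above 0 only without replicate 2. The cause was not tested. Without the filter, Scgb1a1 was called lower in gland-like cells (-0.89, adjusted p = 0.00210, edgeR) and Scgb3a1 lower with Lrig1 in club-like cells (-1.15, adjusted p = 1.91e-05, edgeR). Their log2 differences were nearly the same with the filter, where neither was called.

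In club-like cells stricter gates put Scgb1a1 at 8756 CPM and Scgb3a1 at 11221 CPM, and leaving out the cell with most UMIs of each library put Scgb1a1 at 3259 CPM. Satellite-like minus endothelial-like levels were -475, -184 and -114 CPM for Scgb1a1, Scgb3a1 and Scgb3a2, mostly through single endothelial-like cells of library 2. Without the top cell of each library, endothelial-like levels were 39.9, 6.12 and 9.29 CPM of Scgb1a1, 120.4, 27.6 and 43.8 CPM of Scgb3a1 and 27.9, 15.3 and 2.89 CPM of Scgb3a2. Co-detection in club-like cells over the product of shares was 1.13 at full depth, 1.59 at 2000 UMIs, 1.82 with 2 UMIs as the call and 1.68 above background for Scgb1a1 with Scgb3a1, 1.08 at full depth, 1.33 at 2000 UMIs and 1.29 with 2 UMIs for Scgb1a1 with Scgb3a2, and 1.03 at full depth, 1.13 at 2000 UMIs, 1.13 with 2 UMIs and 1.12 above background for Scgb3a1 with Scgb3a2. The cell limits as worded by the study, and stricter gates for gland-like cells, for Lrig1 in intermediate cells and for the interaction, left under 20 cells in a library and were not run.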
